A study of Homo sapiens with 2 samples.

Results

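The miRNAs described here are those whose precursor hairpin has a miRBase number in the range from mir-3100 to mir-3999. They were taken by that number from a small RNA sequencing table of hCMEC/D3, a line of immortalised endothelial cells from human brain microvessels that is used to model the blood-brain barrier. The rule found 328 of 2363 rows of the table, which named 236 of 1600 precursors and 275 of 2042 mature miRNAs. The series holds 1 group of hCMEC/D3 cells, for which the labels name no treatment, with 2 libraries numbered replicate 2 and replicate 8. The labels do not say whether they came from separate cultures, so the spread between them may be technical. No condition was compared. miR-126-3p, which marks endothelial cells, was abundant in both, with 297696 and 313837 counts. The rule for choosing the hairpins used no measured value, but it was set with earlier results of these data known. Just below the range, hairpins from mir-3060 to mir-3099 gave 6 mature names, of which 3 had at least 10 counts in both libraries, and no hairpin from mir-4000 to mir-4099 was listed.

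miRNA hairpins are cut by Drosha in the nucleus and by Dicer in the cytoplasm, which releases a duplex of a 5p and a 3p arm. Usually 1 arm is loaded into an Argonaute protein and finds target mRNAs through its seed, bases 2 to 8, while the other is degraded. miRBase numbers follow the order of registration, so hairpins in this range entered the database in the years when deep sequencing had become the main source of new entries. Many such entries are known to be low in abundance, and reads from both arms of a hairpin are a usual line of evidence that it is processed as a miRNA.

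The mature sequences of the most abundant members with a sequence in RefSeq (GRCh38.p14) are shown because they carry most of the counts described below. Capitals mark the seed.
miR-3615: uCUCUCGGcuccucgcggcuc
miR-3187-3p: uUGGCCAUggggcugcgcgg
miR-3117-3p: aUAGGACUcauauagugccag
miR-3934-5p: uCAGGUGUggaaacugaggcag
miR-3200-3p: cACCUUGCgcuacucaggucug
miR-3158-3p: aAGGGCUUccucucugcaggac
miR-3177-3p: uGCACGGCacuggggacacgu
miR-3180-3p: uGGGGCGGagcuuccggaggcc
miR-3180: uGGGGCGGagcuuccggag
The last 2 names share all 19 bases of the shorter one and therefore the seed. The other 7 printed seeds differ from each other. RefSeq held a sequence for 239 of the 275 mature names.

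Most of these miRNAs were rare or absent in hCMEC/D3. A mature miRNA was called detected when it had at least 10 counts in both libraries, which 53 of 275 reached (19.3%), against 26.6% of all 2042 names in the table. Of the 275 names, 127 had no count in either library (46.2%), close to the 44.2% among the other 1767 names. At the depth of 2721287 counts in replicate 2 and 2727675 in replicate 8, a count of 0 allows a level of up to 1.10 CPM (counts scaled to a fixed library sum, 3 counts of the library total). The remaining 95 names had counts but were not detected. Of these, 8 had 10 or more counts only in replicate 2 and 5 only in replicate 8, and none had 10 or more counts in 1 library with none in the other. Lowering the requirement to 1 count in both libraries gave 108 names, and raising it to 100 counts gave 13.

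Later number ranges, also from the sequencing era, gave lower shares, stated here without a test. From mir-4417 to mir-4540, 19 of 142 names were detected (13.4%), and from mir-4632 to mir-4804, 22 of 280 (7.86%). The median level of detected names was 18.2 CPM here, 9.36 and 8.90 CPM in those 2 ranges and 55.6 CPM among all other detected names. Within the range the detected names lay in 4 blocks of numbers. There were 20 of 118 from mir-3100 to mir-3199, 2 of 4 from mir-3200 to mir-3299, 19 of 96 from mir-3600 to mir-3699 and 12 of 51 from mir-3900 to mir-3999.

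All 275 names together held 11479 counts in replicate 2 and 10220 in replicate 8. These made up 0.422% of all counts of replicate 2 (95% Wilson interval 0.414 to 0.430). For replicate 8 the share was 0.375% (0.367 to 0.382), and the mean was 0.398% ± 0.0333 (SD, n = 2). The intervals do not overlap, and they cover counting error only, because PCR reads without molecular identifiers are not independent molecules. Both miR-3180 and miR-3180-3p, which have the same counts, are in the sum. Counted once, they left a mean share of 0.392% ± 0.0333 (SD, n = 2). The set makes up 13.5% of the names in the table. miR-3615 alone held 42.8% of the counts of all 275 names in replicate 2 and 45.3% in replicate 8. The 10 most abundant names held 75.6% and 76.1%, and the 53 detected names 97.1% and 96.9%. Ligation and gel selection act on each sequence differently, so levels of different miRNAs compare less well than the level of 1 miRNA between libraries.

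miR-3615 stood apart from the rest, with 4918 counts in replicate 2 and 4625 in replicate 8, or 1751 ± 78.9 CPM (SD, n = 2). It ranked 63rd among all mature names, and was 6.76 times as high as the next member. The hairpin mir-3615 maps to chr17:72744752-72744838 (GRCh37, plus strand), where it overlaps an annotated untranslated region of NHERF1 on the same strand, and no annotated NHERF1 transcript spans all of it. NHERF1 is a scaffold protein that tethers membrane transporters to the actin cortex.

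The next levels were those of miR-3187-3p and miR-3607-3p. miR-3187-3p had 791 and 620 counts in replicates 2 and 8 (259 ± 44.8 CPM). Its hairpin is at chr19:813584-813653 (plus strand), opposite coding exons of PLPPR3, a phospholipid phosphatase related membrane protein. miR-3607-3p had 901 and 504 counts (258 ± 103 CPM). The means of these 2 miRNAs differ by less than their spread, and their order was reversed between the libraries.

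miR-3117-3p and miR-3934-5p came next and were nearly level in the libraries. miR-3117-3p had 413 and 431 counts (155 ± 4.41 CPM), and its hairpin maps to chr1:67094123-67094200 (plus strand) in an intron of SGIP1, an endocytic adaptor gene, in all 39 transcripts that span it. miR-3934-5p had 358 and 374 counts (134 ± 3.93 CPM), from chr6:33665905-33666011 (plus strand), opposite UQCC2, a mitochondrial complex III assembly factor. In both libraries miR-3117-3p was the higher of the pair.

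The remaining members of the 10 lay within a 2-fold range of means. miR-3200-3p had 270 and 340 counts (112 ± 18.0 CPM), from an intron of OSBP2, an oxysterol-binding protein gene, at chr22:31127544-31127628 (plus strand). miR-3653 had 382 and 219 counts (110 ± 42.5 CPM) and miR-3158-3p 191 and 310 (91.9 ± 30.7 CPM). The 2 libraries order this pair oppositely, so their ranks are not resolved. miR-3609 had 260 and 154 counts (76.0 ± 27.6 CPM) and maps to chr7:98479273-98479352 (plus strand) in an intron of TRRAP, a cofactor of histone acetyltransferases. miR-3177-3p had 198 and 197 counts (72.5 ± 0.380 CPM), from an intron of MAPK8IP3, a scaffold of JNK signalling and axonal transport, at chr16:1784986-1785067 (plus strand). The other 43 detected names ranged from 4.40 to 64.6 CPM. In all, 7 names were above 100 CPM, 34 between 10 and 100 CPM and 12 below 10 CPM.

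**Figure D1:**
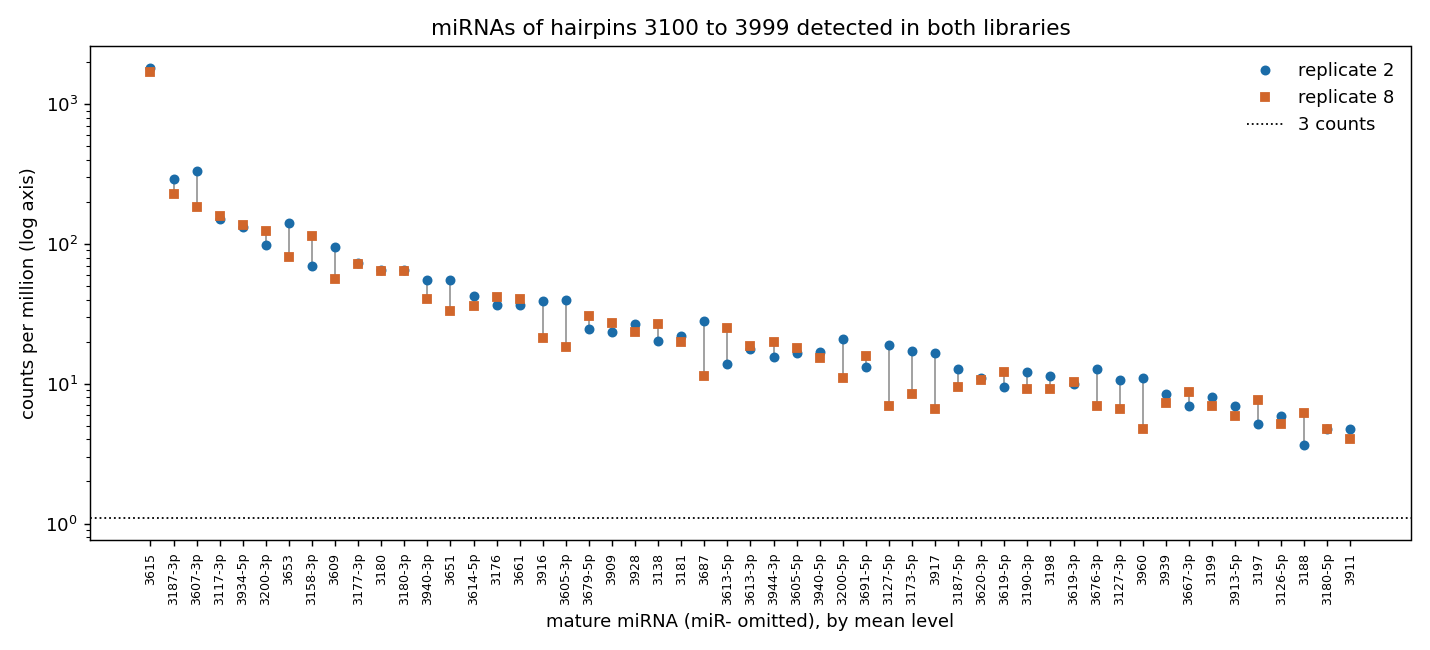
Level of each of the 53 detected miRNAs of hairpins mir-3100 to mir-3999 in CPM on a log axis, with a circle for replicate 2, a square for replicate 8 and a line joining them. miR-3615 is at 1751 CPM on average and the lowest, miR-3911, at 4.40 CPM, all above the dotted line that marks 3 counts.

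Reads from both arms were found for a minority of the hairpins. The table lists a 5p and a 3p name for 77 of the 236 precursors, and only a name without an arm for 154. Both arms were detected in 10 of the 77 (13.0%), against 131 of 562 precursors elsewhere in the table (23.3%). Among only the precursors with a detected arm it was 10 of 28 (35.7%), against 131 of 258 elsewhere (50.8%). Neither difference was tested. Since mir-3180-1, mir-3180-2 and mir-3180-3 list the same arms with the same counts, the 10 precursors are 8 distinct pairs, namely miR-3127, miR-3180, miR-3187, miR-3200, miR-3605, miR-3613, miR-3619 and miR-3940. A further 18 precursors had 1 detected arm, the 5p arm in 8 and the 3p arm in 10, and 49 had neither. Of the 18, 10 had at least 1 count on the other arm. With at least 1 count for each arm in both libraries, 21 precursors had both arms.

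The hairpins below are shown because both of their arms were detected. They are RefSeq sequences (GRCh38.p14), with the 5p and the 3p arm in capitals.
miR-3127: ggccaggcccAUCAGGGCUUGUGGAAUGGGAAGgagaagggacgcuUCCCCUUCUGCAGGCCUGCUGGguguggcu
miR-3180: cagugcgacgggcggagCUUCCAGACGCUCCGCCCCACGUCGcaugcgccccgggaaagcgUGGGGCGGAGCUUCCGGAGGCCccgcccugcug
miR-3187: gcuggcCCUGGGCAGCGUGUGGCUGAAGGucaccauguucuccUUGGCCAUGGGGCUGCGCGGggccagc
miR-3200: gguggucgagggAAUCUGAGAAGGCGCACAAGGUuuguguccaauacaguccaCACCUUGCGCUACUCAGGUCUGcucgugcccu
miR-3619: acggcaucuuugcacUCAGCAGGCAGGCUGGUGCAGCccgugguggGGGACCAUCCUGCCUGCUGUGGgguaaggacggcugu
miR-3940: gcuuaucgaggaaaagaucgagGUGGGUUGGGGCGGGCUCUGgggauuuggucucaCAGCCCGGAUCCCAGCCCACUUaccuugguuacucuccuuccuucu
In the minimum free energy folds computed with RNAfold, 15 of the 20 bases of miR-3940-5p and 18 of the 22 bases of miR-3619-5p paired with the 3p arm. The corresponding numbers were 18 of 23 for miR-3127, 18 of 25 for miR-3180, 17 of 23 for miR-3187 and 17 of 22 for miR-3200. In the printed hairpins the bases between the arms numbered from 9 in miR-3619 to 19 in miR-3180 and miR-3200. For miR-3605, 17 of the 23 bases of the 5p arm paired with the 3p arm, and 21 bases lay between the arms. Each fold is a prediction from sequence, and the counts do not bear on it.

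The balance of the arms differed among these 8 pairs. In 2 of them over 90% of the counts fell on the 3p arm, whichever library was read. For miR-3187 the 5p arm had 35 and 26 counts, or 4.24% of the pair (95% Wilson interval 3.06 to 5.84) and then 4.02% (2.76 to 5.83). For miR-3180 the 5p arm had 13 counts in both libraries beside 177 and 175 for the 3p arm, or 6.84% (4.04 to 11.4) and 6.91% (4.09 to 11.5). In both hairpins the share was the same in the libraries within counting error.

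In miR-3619 and miR-3613 the interval of the 5p share included equal arms in both libraries, and in miR-3127 it did so only in replicate 8. miR-3619 had 26 and 33 counts of the 5p arm and 27 and 28 of the 3p arm, and its hairpin lies in an intron of the let-7b host transcript MIRLET7BHG at chr22:46486924-46487006 (plus strand). miR-3613 had 38 and 68 counts of the 5p arm and 48 and 51 of the 3p arm, from an intron of DLEU2, the lncRNA that also hosts miR-15a and miR-16-1, at chr13:50570551-50570637 (minus strand). miR-3127 had 52 and 19 counts of the 5p arm and 29 and 18 of the 3p arm, from an intron of the metal transporter gene CNNM4 at chr2:97464015-97464090 (plus strand). Its 5p share was 64.2% (95% Wilson interval 53.3 to 73.8) and 51.4% (35.9 to 66.6). The share was 49.1% (36.1 to 62.1) and 54.1% (41.7 to 66.0) for miR-3619, and 44.2% (34.2 to 54.7) and 57.1% (48.2 to 65.7) for miR-3613. For each of the 3, the intervals of the libraries overlapped.

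miR-3940, miR-3605 and miR-3200 had more counts on the 3p arm than on the 5p arm in each library. For miR-3605 in replicate 8, as for miR-3127, the interval of the 5p share included equal arms. miR-3940 had 46 and 42 counts of the 5p arm and 151 and 111 of the 3p arm. Its hairpin, at chr19:6416421-6416522 (minus strand), overlaps a coding exon of KHSRP in all 3 spanning transcripts. KHSRP is an RNA-binding protein that itself takes part in miRNA maturation. For miR-3605, at chr1:33797994-33798093 (minus strand) and overlapping an exon of the Polycomb gene PHC2 in all 11 spanning transcripts, the 5p arm had 45 and 49 counts and the 3p arm 109 and 50. Its 5p share was 29.2% (95% Wilson interval 22.6 to 36.8) and 49.5% (39.9 to 59.2). For miR-3200 the 5p arm had 57 and 30 counts, a 5p share of 17.4% (13.7 to 21.9) and 8.11% (5.74 to 11.3). In miR-3605 and miR-3200 the intervals of the libraries did not overlap, and the difference itself was not tested.

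Some hairpins with 1 detected arm had counts on that arm only. This held for 8 of 18 precursors here and 41 of 127 elsewhere in the table, a difference that was not tested. Of the 16 distinct pairs with 1 detected arm, 7 had no count for the other arm in either library. They were miR-3117 and miR-3190 with only 3p counts, and miR-3934, miR-3614, miR-3679, miR-3691 and miR-3913 with only 5p counts. For miR-3117 a 5p share of up to 0.922% in replicate 2 and 0.883% in replicate 8 lies inside the 95% Wilson interval. miR-3614-5p and miR-3173-5p are given as examples picked after their values were seen. miR-3614-5p had 116 and 98 counts, from a hairpin overlapping an exon of TRIM25, a ubiquitin ligase of antiviral RNA sensing, in 3 of 5 spanning transcripts (chr17:54968631-54968716, minus strand). miR-3173, in an intron of DICER1 itself, had 47 and 23 counts of the 5p arm and 1 and 8 of the 3p arm. Its 5p share was 97.9% (89.1 to 99.6) and 74.2% (56.8 to 86.3), on few counts. For 17 precursors the arms together reached 50 counts in each library. In 12 of them a single arm took over 90% in both (70.6%, exact interval over precursors 44.04 to 89.7), 9 of them the 3p arm and 3 the 5p arm. Elsewhere in the table this held for 132 of 195 precursors (67.7%), 43 of them the 3p arm and 89 the 5p arm. Counted once per pair of arm names it was 9 of 14 here (64.3%, exact interval 35.1 to 87.2), 6 of them the 3p arm.

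**Figure D2:**
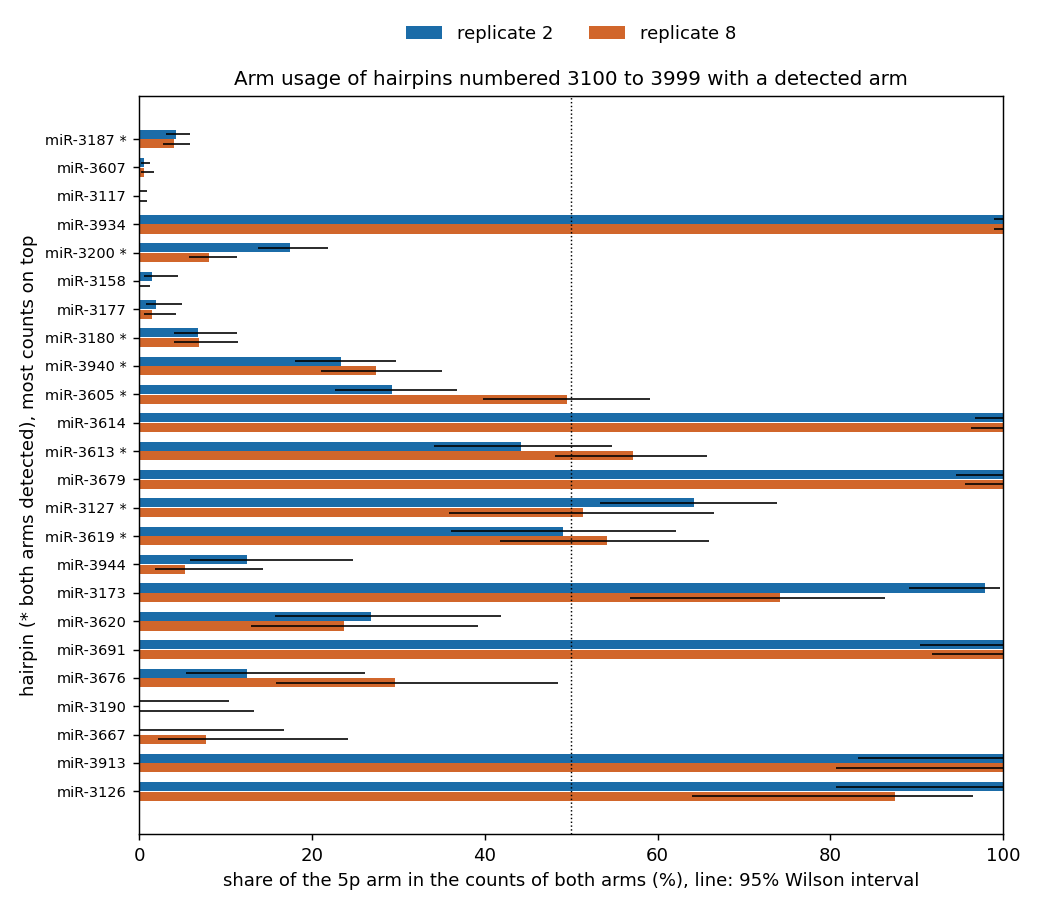
Share of the 5p arm in the counts of both arms for the 24 distinct arm pairs with at least 1 detected arm, as bars for replicate 2 and replicate 8 with 95% Wilson intervals as lines. Asterisks mark the 8 pairs with both arms detected; miR-3605 and miR-3200 are the 2 of them whose intervals do not overlap between the libraries.

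Several hairpins of this range lie on the opposite strand of another miRNA hairpin, and their mature sequences are then complementary to those of the partner. The clearest cases are printed to show this, with the complementary run in capitals.
miR-3184-3p: AAAGUCUCGCUCUCUGCCCCUCA
miR-423-5p: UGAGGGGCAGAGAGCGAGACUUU
miR-3529-3p: AACAACAAAAUCACUAGUCUUCCA
miR-7-5p: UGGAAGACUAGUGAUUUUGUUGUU
miR-3591-3p: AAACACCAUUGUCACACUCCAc
miR-122-5p: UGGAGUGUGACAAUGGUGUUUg
miR-3190-3p: ugUGGAAGGUAGACGGCCAGAGA
miR-3191-5p: cUCUCUGGCCGUCUACCUUCCA
miR-3158-3p: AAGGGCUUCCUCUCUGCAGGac
miR-3158-5p: CCUGCAGAGAGGAAGCCCUUc
The last printed pair consists of the arms of miR-3158. In each printed pair nearly all counts were on 1 of the names, but not every complementary pair is printed. For example, miR-3130-5p and miR-3130-3p, complementary over 20 bases, had 21 and 9 counts against 4 and 2. miR-3184-3p had no count in either library although miR-423-5p, complementary over all 23 bases, had 43614 and 35828. miR-3184-5p had 2 and 4 counts beside 75206 and 69477 of miR-423-3p, or 0.00415% of the partner. miR-3529-3p and miR-3591-3p also had no count, beside 6909 and 8087 counts of miR-7-5p and 639 and 688 of miR-122-5p. Whether the counting used strand is not given in the sources used here.

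The opposite-strand list of miR-3184, miR-3120, miR-3591, miR-3190, miR-3191, miR-3150a and miR-3150b held 14 mature names, of which 9 had no count and 1 was detected. miR-3529 is not on that list and was added after its sequence had been compared. The detected name was miR-3190-3p with 33 and 25 counts (10.6 ± 2.09 CPM), while miR-3191-5p opposite to it had none and miR-3191-3p had 3 and 7. miR-3150a-5p had 14 and 8 counts. Both arms of miR-3120, opposite miR-214, were at 0, with 23 and 2 counts of miR-214-3p. The 3p and 5p arms of miR-3158 are complementary over 20 bases, and the table gives them 2 precursors, mir-3158-1 and mir-3158-2. miR-3158-5p had 3 counts in replicate 2 and none in replicate 8, beside 191 and 310 of the 3p arm.

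Hairpins with several copies share their mature sequence, so their reads cannot be assigned to a locus. In the range, 37 mature names had more than 1 row, and 20 of them had any count. In 17 of the 20 the rows had the same summed counts, and the largest difference between rows of 1 name was 3. The list of repeated hairpins matched 21 stems with 33 names, of which 16 had no count and 6 were detected. They were miR-3158-3p, miR-3180-3p, miR-3180, miR-3180-5p, miR-3199 and miR-3913-5p. miR-3198, which is not on that list, also had 2 rows and was detected, with 31 and 25 counts. miR-3180 and miR-3180-3p had 177 and 175 counts each and share 19 bases, and the detected number is 52 if they count as 1. The large miR-3118 and miR-3689 groups gave no detected name.

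Detected miRNAs were richer in G and C. Among the 45 detected names with a RefSeq sequence the median GC content was 59.1% (quartiles 54.2 to 68.4), among 81 names with counts below detection it was 52.6% (43.5 to 61.9) and among 113 names at 0 it was 45.5% (36.4 to 54.2). The median length was 22 bases in all 3. A U at the first base, the base that human AGO2 favours, was present in 22 of the 45 (48.9%), in 35 of the 81 (43.2%) and in 34 of the 113 (30.1%). These are descriptions of the names, which share libraries and ligation chemistry, and the part of base composition in capture was not tested.

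Of the 45 detected names with a sequence, 34 had a seed that none of the other names with a RefSeq sequence carries, which 1716 of the 2042 names in the table have. The other 11 shared it, and apart from miR-3180 with miR-3180-3p, and the 2 cases below, the names sharing it had at most 6 summed counts. miR-3619-5p has the seed CAGCAGG of miR-214-3p, which had 23 and 2 counts against 26 and 33 of miR-3619-5p. miR-3187-5p has the seed CUGGGCA of miR-1285-3p, which had 242 and 274 counts and so was the more abundant carrier.

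GENCODE places 188 of the 236 precursors on GRCh37. Of these, 40 had a detected arm, and they lay on 16 chromosomes, with 7 on chromosome 22 and 5 on chromosome 1. Of the 40, 29 were inside or overlapped a gene on the same strand (72.5%), 24 of them protein-coding, and 10 overlapped an exon of any transcript of it. Among the 148 without a detected arm, 92 were in a same-strand gene (62.2%), 75 of them protein-coding, and 10 overlapped an exon of any transcript. Within 10000 bases on the same strand, only mir-3176, mir-3187 and mir-3687 of the 40 had another hairpin of the table. mir-3187 neighbours mir-4745, whose arms had 95 and 81 counts (5p) and 87 and 63 (3p).

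Taken over all tested names, the libraries agreed less closely for these miRNAs than for the rest of the table, where counts are higher. This did not hold in every band of counts given below. For the 74 members whose counts summed to 10 or more, the correlation of log2(CPM + 1) was 0.940 (Pearson's r) and 0.919 (Spearman's rho), against 0.985 and 0.964 across 621 other names. These describe miRNAs of the same 2 libraries, not replicates. The median absolute log2 ratio of replicate 8 over replicate 2 was 0.43, and 0.33 over all 695 names. It was smaller where counts were higher. At 10 to 29 summed counts it was 0.69 for 21 members and 0.67 for 149 others, at 30 to 99 it was 0.36 for 27 and 0.43 for 131, and from 100 upwards it was 0.32 for 26 and 0.21 for 341.

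**Figure D3:**
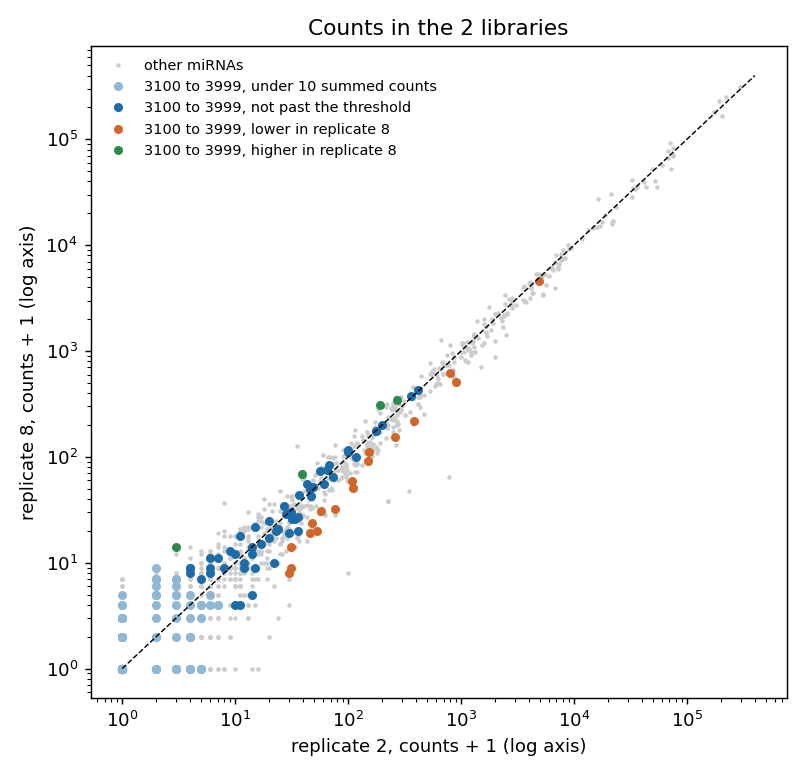
Counts plus 1 of every mature miRNA in replicate 2 (x) and replicate 8 (y) on log axes, with the miRNAs of hairpins mir-3100 to mir-3999 coloured by outcome of the exact binomial test and all others in grey; the dashed line marks equal counts. Of the 74 tested, 17 lie lower and 4 higher in replicate 8, and most others crowd the low end.

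For each name the libraries were compared by an exact binomial test, with both tails counted and Benjamini-Hochberg adjustment over all 695 names. It compares 2 libraries and not conditions. Its p-values and exact intervals take reads as independent and so cover counting error only, and "fell" and "rose" below mean only that the count in replicate 8 was lower or higher past this test. Of the 74 members, 21 had an adjusted p under 0.05, against 34.2% of all names. Of the 74, 17 were lower and 4 were higher in replicate 8. Of all 695 names, 163 were lower (23.5%) and 75 were higher (10.8%). With TMM library sizes 18 members passed, 14 lower and 4 higher, while of all names 32.7% passed, 16.7% lower and 16.0% higher. With DESeq2 size factors the member counts were the same, against 32.2% of all names (16.3% lower, 16.0% higher). The 18 were among the 21 in both cases. Of the 74, 9 passed and differed by more than 1 on the log2 scale, 8 lower and 1 higher. Of all 695 names, 45 did so (6.47%).

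The 5 largest falls in replicate 8 among members with at least 20 summed counts were in miRNAs of low level. miR-3179 went from 29 to 7 counts (log2 ratio -1.98, 95% exact interval -3.49 to -0.83, exact binomial test with adjusted p = 0.000913). miR-3622a-5p went from 30 to 8, a log2 ratio of -1.85 (-3.25 to -0.75). Both passed 10 counts in replicate 2 alone. miR-3127-5p went from 52 to 19 (-1.43, interval -2.30 to -0.67). miR-3917, which overlaps an exon of 1 of 2 spanning transcripts of STMN1, a microtubule destabiliser, went from 45 to 18 (-1.30, interval -2.20 to -0.51). miR-3687 went from 76 to 31 (-1.28, interval -1.95 to -0.68). Replicate 8 was the lower library in each.

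The 4 rises were miR-3175, miR-3613-5p, miR-3158-3p and miR-3200-3p. miR-3613-5p went from 38 to 68 counts (log2 ratio 0.83, 95% exact interval 0.24 to 1.45, exact binomial test with adjusted p = 0.0157), while miR-3613-3p from the same hairpin had 48 and 51 (0.08, interval -0.51 to 0.68). miR-3158-3p went from 191 to 310 (log2 ratio 0.69, 95% exact interval 0.43 to 0.96, exact binomial test with adjusted p = 9.6e-07). miR-3175 went from 2 to 13 counts, which is under the 20 summed counts required for naming and is given because only 4 rose. In replicate 2 it was under the level of 3 counts that 0 allows.

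The arms of miR-3200 moved in opposite directions. miR-3200-3p rose from 270 to 340 counts (log2 ratio 0.33, 95% exact interval 0.09 to 0.57, exact binomial test with adjusted p = 0.0172). miR-3200-5p fell from 57 to 30 (log2 ratio -0.92, 95% exact interval -1.62 to -0.27, exact binomial test with adjusted p = 0.0130). In miR-3605 the 3p arm fell from 109 to 50, a log2 ratio of -1.12 (-1.64 to -0.63), and the 5p arm had 45 and 49, a log2 ratio of 0.12 (-0.49 to 0.74).

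Among the 10 most abundant members, miR-3615 had a small ratio, miR-3187-3p was lower in replicate 8 and 3 others did not pass. Of the rest, miR-3200-3p and miR-3158-3p rose, as given above, and miR-3607-3p, miR-3653 and miR-3609 fell, as given below. For miR-3615 the log2 ratio was -0.09 (95% exact interval -0.15 to -0.03, exact binomial test with adjusted p = 0.00717), but with TMM sizes it was 0.01 (adjusted p = 0.939), and with DESeq2 size factors it was also 0.01 (adjusted p = 0.867), so its direction rests on the scaling. For miR-3187-3p the log2 ratio was -0.35 (-0.51 to -0.20, exact binomial test with adjusted p = 2.9e-05), and the call held with TMM (adjusted p = 0.00405) and DESeq2 size factors (adjusted p = 0.00475). miR-3117-3p, miR-3934-5p and miR-3177-3p had log2 ratios of 0.06, 0.06 and -0.01, and none passed.

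Some hairpins in the range are known to overlap genes of other structured RNAs. The list held miR-3607, miR-3651 and miR-3653 (small nucleolar RNAs), miR-3676 (a tRNA), and miR-3648, miR-3656 and miR-3687 (ribosomal RNA-like repeats). Its 9 mature names had 1561 counts in replicate 2 and 888 in replicate 8, or 13.6% and 8.69% of the counts of all 275 names. Of the 9, 5 were detected and 8 had enough counts to test. None was higher and 4 were lower in replicate 8, with a median log2 ratio of -0.77 over the 8. Of all 695 names 23.5% were lower and 10.8% higher, and their median was -0.11. The list was drawn up with earlier results of these data known, so its direction is not independent evidence.

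All 3 names of the snoRNA hairpins with enough counts fell. miR-3607-3p went from 901 to 504 counts (log2 ratio -0.84, 95% exact interval -1.002 to -0.68, exact binomial test with adjusted p = 2.0e-25). miR-3653 went from 382 to 219 (-0.80, interval -1.05 to -0.56) and miR-3651 from 150 to 90 (-0.74, interval -1.13 to -0.35). Their ratios lie within each other's intervals. miR-3609, which is not on the list and was picked out after its value was seen, had 260 and 154 counts and a log2 ratio of -0.76 (-1.06 to -0.47). The 4th to pass was miR-3687, above. miR-3676-3p had 35 and 19 counts, a log2 ratio of -0.87 (exact binomial adjusted p = 0.0795). miR-3676-5p, miR-3648 and miR-3656 had 5 and 8, 4 and 6, and 3 and 8 counts, each with a log2 ratio above 0 that did not pass. Whether reads of the overlapping RNAs contribute was not tested. Without the opposite-strand and structured RNA lists, 47 names were detected and the summed share was 0.351% ± 0.0156 (SD, n = 2).

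**Figure D4:**
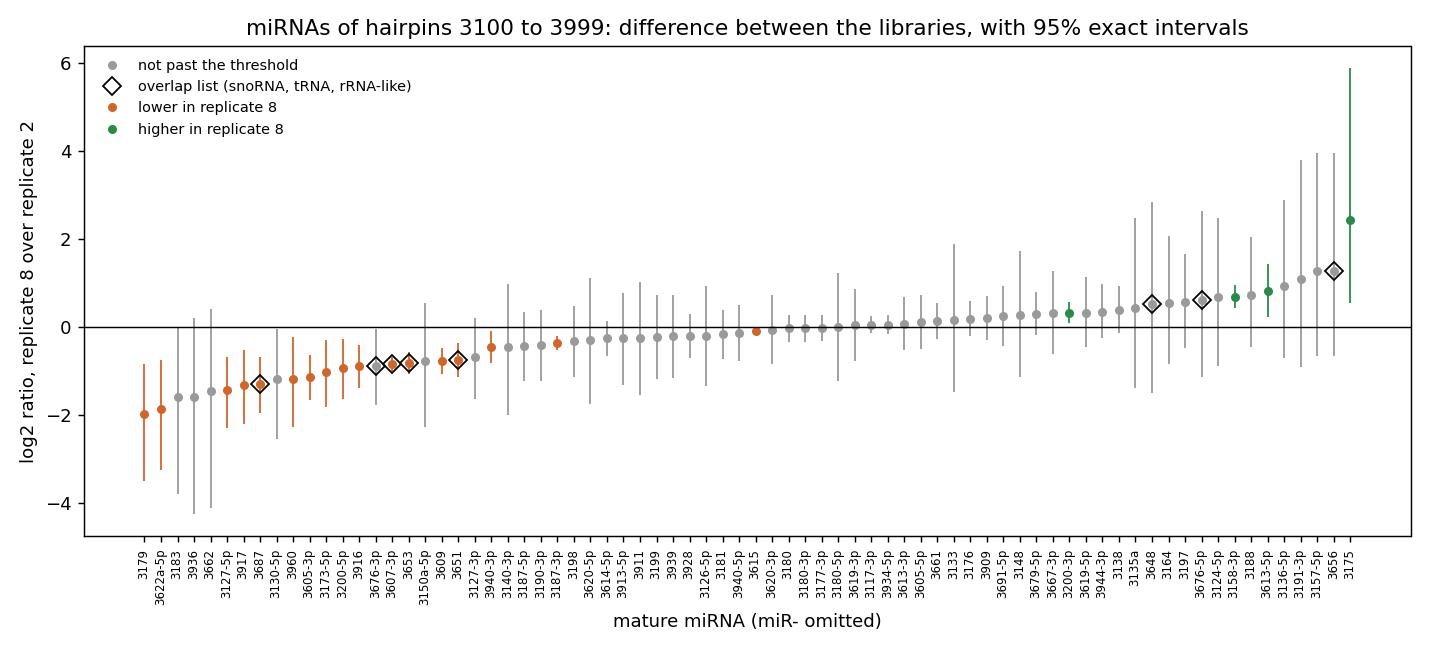
Log2 ratio of replicate 8 over replicate 2 for the 74 members with at least 10 summed counts, ordered by ratio, with 95% exact intervals as lines, colours for the outcome of the exact binomial test and diamonds for the 8 tested names that overlap other structured RNA genes. Those past the threshold run from -1.98 for miR-3179 to 2.43 for miR-3175, and 5 of the 8 diamonds lie below 0.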

How the data were processed

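Small RNA libraries from hCMEC/D3 were sequenced by the authors. Per the submitters' processing notes, CASAVA 1.9, FastQC, cutadapt, Bowtie 0.12.7 and build hg19 were used. The counter, mismatch and multimapping rules and miRBase release are not given in the sources used here. The deposited table gives raw counts per pair of mature miRNA and precursor, and RPM, per the file headers. The deposited RPM equal counts divided by 3180045 in replicate 2 and 3205752 in replicate 8, and served only as an alternative.

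Each mature name was represented by its row of highest mean count, and CPM used the resulting totals. Log2 ratios had 0.5 counts added. Calculations used Python 3.11.15, scipy 1.17.1, ViennaRNA 2.7.2, and edgeR 4.0.16 (TMM) and DESeq2 1.42.0 (size factors) as alternatives. The exact binomial test was tried on simulated counts that held counting error only, so this check does not cover other spread between libraries. Changes were simulated only in names with at least 100 expected summed counts. No test between conditions was possible with 1 group. Positions are from GENCODE lifted to GRCh37, the build hg19 names, and sequences from RefSeq (GRCh38.p14).

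Named were the 10 highest members, both arms where both were detected, up to 5 largest called ratios each way with at least 20 summed counts, and members of the opposite-strand, structured RNA and repeated hairpin lists. miR-3155a, miR-3155b, miR-3173, miR-3175, miR-3176, miR-3198, miR-3529, miR-3614, miR-3679, miR-3691, miR-3911 and miR-3960 fall outside this rule and were named after their values were seen. Members and lists were chosen with earlier results of these data known.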

Additional observations from a re-analysis of the deposited data

How the results depend on the processing

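Over 6 summary results, 41 values were recomputed, and 32 stayed close to the values reported (within 1 SD for the share, 1.5 times for counts and the median ratio, and the exact interval for arm dominance). Detection gave 108 names with at least 1 count in both libraries and 13 with at least 100. Precursors with both arms numbered 21 with at least 1 count for each arm and 0 with at least 100. The summed share was 0.351% without the listed overlapping hairpins and 0.223% without miR-3615. Arm dominance was 100% when 500 counts were required for the pair, on 2 precursors. With at least 100 summed counts, 13 members differed between the libraries, of 26 tested. The median absolute log2 ratio with no filter on low counts was 0.90. Leaving out either library gave 58 to 61 detected names, shares of 0.375% to 0.422%, which lie within 1 SD by construction, 10 to 11 precursors with both arms and dominance of 66.7% to 77.8%. Of 247 values for 33 named members, 240 kept their side of the threshold, and those of them that passed it also kept their direction. Among names that did not pass, miR-3177-3p, miR-3180-3p and miR-3180-5p changed sign with TMM and DESeq2 size factors. Their log2 ratios went from -0.011, -0.020 and -0.0034 to 0.088, 0.079 and 0.095 with TMM. The log2 ratio of miR-3615 reversed, to 0.00625 with TMM and 0.0103 with DESeq2 size factors, since these raise every log2 ratio by 0.10. miR-3940-3p lost its call with TMM, DESeq2 size factors and no filter (adjusted p = 0.142, 0.142 and 0.0651), and miR-3960 with TMM and DESeq2 size factors (0.0636 and 0.0640). Counting miR-3180 once and each pair of arm names once were alternatives chosen after seeing the data. No paired analysis was possible because there is 1 group.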

Other observations

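miR-3911 and miR-4658, which lies outside the range, share a run of 17 bases on the same strand, with 13 and 11 counts of miR-3911 against 184 and 116 of miR-4658. miR-3155a and miR-3155b share 18 bases and have the same counts, 0 and 2.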
